A study of Danio rerio with 10 samples.

Results

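Thrombocytes of the adult zebrafish kidney were the 863 cells that the annotation deposited by the authors calls thrombocytes, out of 101598 whole-kidney cells of 15 annotated types in 9 libraries. The label was taken as it stands, because the tables hold annotation and totals per cell. Levels of the defining genes of the type, *itga2b*, *mpl* and *thbs1b*, were not analysed here, so the label was not checked against them in these cells. The study asked how the C/EBP transcription factor genes *cebp1* and *cebpb* act on blood formation, and thrombocytes were among the types annotated beside the granulocytes it was about. Three-prime droplet scRNA-Seq was run on the whole kidneys of 3 *cebp1*-/- fish (*cebp1* mutant, allele *smu1*), 3 *cebpb*-/- fish (*cebpb* mutant, allele *szy7*) and 3 wild-type fish (WT), with 1 fish per library. All 9 fish were females of 3 months on the AB strain background, and the study names no transgene for them. Both mutations are present in every cell of the fish, so blood cells and the surrounding kidney differ from WT together, and each gene was represented by a single allele.

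Thrombocytes are the nucleated clotting cells of fish and do the work that platelets do in mammals. They arise in the kidney marrow from hematopoietic stem and progenitor cells (HSPCs), in a lineage close to that of erythrocytes. The thrombopoietin receptor, encoded by *mpl*, drives their formation. The integrin encoded by *itga2b* (CD41) serves in their aggregation, and *thbs1b* encodes a thrombospondin, a kind of adhesive glycoprotein also known from platelet granules. Mature thrombocytes are small cells with little cytoplasm.

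Libraries held 7918 to 14440 cells and 26076072 to 48071055 UMIs (unique molecular identifiers, each standing for a captured transcript), with a library median of 1756 to 3208.5 UMIs per cell. The 3 libraries numbered 1 stood apart from the rest by a low library median of mitochondrial UMIs, which was 1.63% in the *cebp1* mutant, 1.69% in the *cebpb* mutant and 0.884% in WT, against 3.39% to 9.47% in the libraries numbered 2 and 3. *cebp1* mutant libraries 2 and 3 stood apart by the type annotated as atypical, at 17.7% and 19.5% of their cells, against 0% to 2.36% in the other 7 libraries. Erythrocytes took 6.74% to 50.8% of a library. Of the 863 thrombocytes, 22 (2.55%) carried a barcode that also occurred in another library, near the 2.42% of all cells, and no barcode was shared by a pair of thrombocytes.

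Thrombocytes were rare in all 9 libraries. They made up 0.802%, 1.61% and 0.910% of all cells in *cebp1* mutant libraries 1, 2 and 3 (98, 200 and 96 cells), 0.374%, 0.329% and 1.07% in *cebpb* mutant libraries (54, 34 and 85 cells), and 1.16%, 0.734% and 0.832% in WT libraries (96, 91 and 109 cells). *cebp1* mutant library 2 was the highest of all and *cebpb* mutant libraries 1 and 2 were the lowest, while the third *cebpb* mutant library lay among the WT libraries. Exact Clopper-Pearson 95% intervals, which cover counting error only, ran from 1.40% to 1.85% in *cebp1* mutant library 2, from 0.228% to 0.460% in *cebpb* mutant library 2 and from 0.942% to 1.42% in WT library 1. The highest share was 4.90 times the lowest. In each genotype the intervals of some libraries lay apart and those of others overlapped. In WT only libraries 1 and 2 lay apart, and narrowly (lower end 0.942% against upper end 0.900%). Some libraries of 1 genotype thus differed by more than counting error. Each library is another fish and another preparation, and the 2 cannot be told apart. In the order of the types by share, pooled over all libraries, thrombocytes (0.849%) stood second from the bottom, between unknown immune cells (0.526%) and unknown cells (0.895%).

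The first comparison asked whether loss of *cebp1* or *cebpb* went along with another share of thrombocytes. The share averaged 1.11% ± 0.442 in *cebp1* mutants, 0.592% ± 0.417 in *cebpb* mutants and 0.909% ± 0.224 in WT (SD, n = 3 libraries each). All 3 pairs of groups overlapped. In *cebp1* mutants the fitted share was 1.22 times that of WT (95% interval 0.527 to 2.83, log2 difference 0.29, SE 0.54, edgeR quasi-likelihood test, adjusted p = 0.826), in a comparison in which 2 of 15 types (13.3%) were called. In *cebpb* mutants it was 0.649 times that of WT (0.278 to 1.52, log2 difference -0.62, SE 0.54, edgeR adjusted p = 0.636), where 1 of 15 types (6.67%) was called. *cebp1* mutants had 1.88 times the share of *cebpb* mutants (0.804 to 4.40, log2 difference 0.91, SE 0.55, edgeR adjusted p = 0.240), where 2 of 15 types (13.3%) were called. Thrombocytes were not among the called types in any of the 3 comparisons. Two-sided exact permutation tests of the percentages gave p = 0.6, 0.3 and 0.3 for the 3 comparisons in the same order, where 3 against 3 libraries cannot go below 0.1.

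*cebp1* mutant library 2 decided the direction between *cebp1* mutants and WT. It held 200 of the 394 thrombocytes of *cebp1* mutants, and without it the log2 difference to WT was -0.09. In *cebpb* mutants the third library did the opposite, and without it the log2 difference to WT was -1.37, still short of the threshold. The comparison of *cebp1* with *cebpb* mutants rested on the same libraries, and its log2 difference was 1.65 without *cebpb* mutant library 3 (edgeR unadjusted p = 0.0119, adjusted p = 0.0593) and 0.54 without *cebp1* mutant library 2 (adjusted p = 0.498). Within the 6 libraries numbered 2 and 3, which leaves the low-mitochondrial libraries out, the log2 differences were 0.69 for *cebp1* mutants against WT, -0.17 for *cebpb* mutants against WT and 0.86 for *cebp1* mutants against *cebpb* mutants. The libraries numbered 1 hold a single fish per genotype and give no test of their own.

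**Figure D1:**
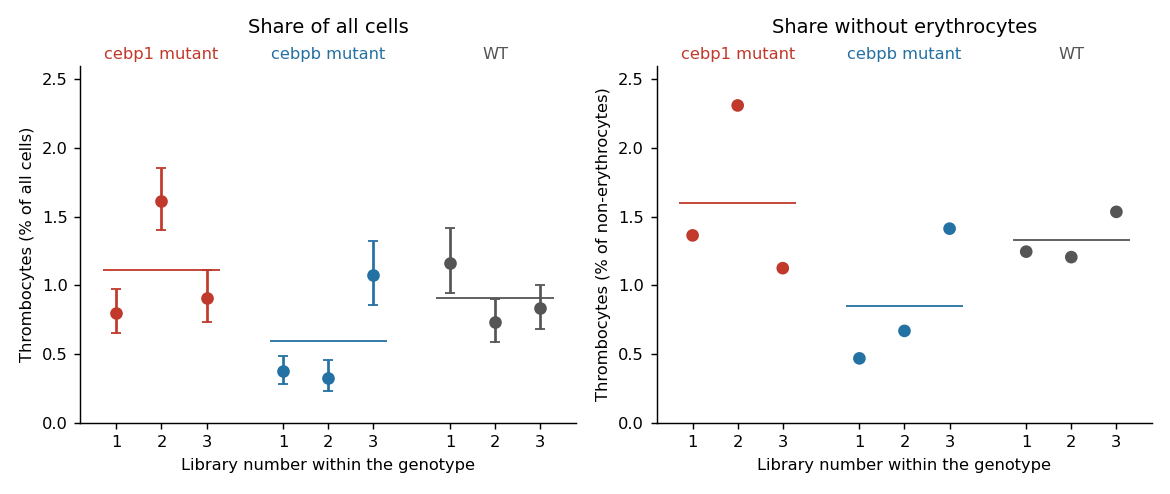
Thrombocytes as a percentage of all cells (left) and of cells other than erythrocytes (right), by library number within each genotype. Points are libraries, vertical bars on the left are exact 95% counting intervals and horizontal lines are group means. *cebp1* mutant library 2 lies highest in both panels, *cebpb* mutant libraries 1 and 2 lie lowest, and every pair of groups overlaps in both panels.

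Since erythrocytes took very different shares of the libraries, thrombocytes were also set against the other cells alone. They made up 1.36%, 2.31% and 1.13% of cells other than erythrocytes in *cebp1* mutants, 0.469%, 0.669% and 1.41% in *cebpb* mutants, and 1.25%, 1.21% and 1.54% in WT. WT libraries lay close together on this scale, with a mean of 1.33% ± 0.180, while *cebp1* mutants averaged 1.60% ± 0.626 and *cebpb* mutants 0.850% ± 0.498 (SD, n = 3 each). The log2 differences were 0.27 (SE 0.48) for *cebp1* mutants against WT, -0.65 (SE 0.48) for *cebpb* mutants against WT and 0.92 (SE 0.48) for *cebp1* mutants against *cebpb* mutants, with edgeR adjusted p = 0.686, 0.492 and 0.186. Of the 14 types, 2 (14.3%), 1 (7.14%) and 2 (14.3%) were called in these comparisons, and again thrombocytes were not among them. The difference between the mutants, 1.89-fold (0.888 to 4.01), had the lowest unadjusted edgeR or limma p of the 27 thrombocyte results tested, at 0.0894. Exact permutation tests gave p = 0.7, 0.3 and 0.3. Without *cebp1* mutant library 2, the log2 difference between *cebp1* mutants and WT was -0.09 on this scale too, and without atypical cells it was 0.57. Between the mutants it was 1.496 without *cebpb* mutant library 3 (edgeR adjusted p = 0.0561) and 0.55 without *cebp1* mutant library 2.

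Ratios to the cells of origin and to the neighbouring lineage do not depend on the rest of the library. Per HSPC there were 0.0897, 0.148 and 0.0620 thrombocytes in *cebp1* mutants, 0.0381, 0.05 and 0.154 in *cebpb* mutants, and 0.0878, 0.110 and 0.142 in WT. The ratio averaged 0.0999 ± 0.0439 in *cebp1* mutants, 0.0808 ± 0.0639 in *cebpb* mutants and 0.113 ± 0.0274 in WT (SD, n = 3 each), and *cebpb* mutants held both the lowest and the highest ratio of all libraries. By limma on log2 ratios the differences were -0.24 (SE 0.61, adjusted p = 0.998) for *cebp1* mutants against WT, -0.73 (adjusted p = 0.515) for *cebpb* mutants against WT and 0.49 (adjusted p = 0.562) for *cebp1* mutants against *cebpb* mutants. In these comparisons 1 (7.14%), 1 (7.14%) and 3 (21.4%) of 14 types were called, thrombocytes in none. *cebp1* mutants thus lay above WT as a share of cells but not per HSPC, and neither difference was larger than the spread between libraries. Without *cebp1* mutant library 3 the difference per HSPC between *cebp1* mutants and WT was 0.05.

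Erythroid progenitors, the precursors of erythrocytes, gave a still wider spread. Per erythroid progenitor there were 0.0868, 0.35 and 0.163 thrombocytes in *cebp1* mutants, 0.0791, 0.128 and 0.308 in *cebpb* mutants, and 0.323, 0.128 and 0.198 in WT. Each group thus ranged over more than the differences between the group means, which were 0.2 ± 0.136 in *cebp1* mutants, 0.172 ± 0.121 in *cebpb* mutants and 0.216 ± 0.0990 in WT (SD, n = 3 each). The limma log2 differences were -0.24 (SE 0.71, adjusted p = 0.998) for *cebp1* mutants against WT, -0.46 (adjusted p = 0.749) for *cebpb* mutants against WT and 0.22 (adjusted p = 0.828) for *cebp1* mutants against *cebpb* mutants. The number of types called was 1 of 14 (7.14%), 0 (0%) and 5 (35.7%), thrombocytes in none. In the comparison with 0 calls, 2 types had an unadjusted limma p under 0.05, that of thrombocytes was 0.535, and edgeR with erythroid progenitors as offset called 0 types as well. The direction turned on single libraries here: without *cebp1* mutant library 1 or WT library 1 the difference between *cebp1* mutants and WT was 0.24 or 0.10, and without *cebp1* mutant library 2 or *cebpb* mutant library 1 that between the mutants was -0.30 or -0.23.

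Thrombocytes were among the shallowest cells of the kidney. Their median over all cells was 1469 UMIs, the lowest of the 15 types, with unknown cells (1498) next above. By the mean of the library medians they were second lowest at 1475 UMIs, above atypical cells (1320) and below unknown cells (1553), whereas erythrocytes had 2497, HSPCs 4496 and erythroid progenitors 6340. Of the thrombocytes, 458 (53.1%) had under 1500 UMIs, against 27.4% of all other cells, and 197 (22.8%) had 2000 or more, against 56.9% of the others. The lowest thrombocyte had 1002 UMIs, and the authors kept cells of more than 1000, so the lower end of the distribution was set by that filter. How many thrombocytes lay under it is not known, and a share of thrombocytes here means a share of cells that passed it.

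The median was 1361, 1388.5 and 1409 UMIs per cell in *cebp1* mutants, 1374, 1599 and 1540 in *cebpb* mutants, and 1429, 1566 and 1612 in WT. The highest thrombocyte median was 1.18 times the lowest, a narrow range. Of all thrombocytes 53.1% had under 1500 UMIs, near the filter at 1000 UMIs, and the part of the filter in this range was not tested. In all 9 libraries the thrombocyte median lay below that of the other cells, by the least in *cebpb* mutant library 2, where it was 1599 against 1756. The 3 *cebp1* mutant medians, 1386 ± 24.1 on average, all lay below the 3 WT medians, 1536 ± 95.2 on average (SD, n = 3 each), without overlap. In all others of the 27 thrombocyte results the groups overlapped, and overlap was not counted for the other types. Between *cebp1* mutants and WT the exact permutation test gave p = 0.1, the smallest that it allows. For the same comparison limma gave a log2 difference of -0.15 (95% interval -0.46 to 0.17, adjusted p = 0.514). No type was called in this comparison (0%), none in *cebpb* mutants against WT (0%) and 2 of 14 (14.3%) in *cebp1* mutants against *cebpb* mutants, where thrombocytes had a log2 difference of -0.12 (limma adjusted p = 0.833). *cebpb* mutants averaged 1504 ± 117 UMIs, and their log2 difference to WT was -0.03 (limma adjusted p = 0.853, exact p = 0.6). In each of the comparisons with 0 calls 1 type had an unadjusted limma p under 0.05, and those of thrombocytes were 0.322 for *cebp1* mutants and 0.830 for *cebpb* mutants.

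The share of thrombocytes was also taken among deeper cells alone. Among cells of 2000 or more UMIs, thrombocytes made up 0.257%, 0.428% and 0.285% in *cebp1* mutants (18, 28 and 19 cells), 0.218%, 0.157% and 0.422% in *cebpb* mutants (17, 7 and 19 cells), and 0.430%, 0.358% and 0.509% in WT (26, 26 and 37 cells). On this scale *cebp1* mutants lay below WT, with an edgeR log2 difference of -0.42 in place of 0.29 (adjusted p = 0.538). In *cebp1* mutants 63.3%, 59.0% and 59.4% of thrombocytes had under 1500 UMIs, in *cebpb* mutants 57.4%, 41.2% and 44.7%, and in WT 53.1%, 49.5% and 38.5%. The direction of the share between *cebp1* mutants and WT thus turned with the depth at which cells were counted. Neither value was larger than the spread between libraries. The shares of the 2 mutant groups among these deeper cells overlapped too, at 0.257% to 0.428% in *cebp1* and 0.157% to 0.422% in *cebpb* mutants. Over all alternatives to the share of all cells, the log2 difference between the mutants ranged from 0.287 to 1.65, against 0.91 in the main fit.

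**Figure D2:**
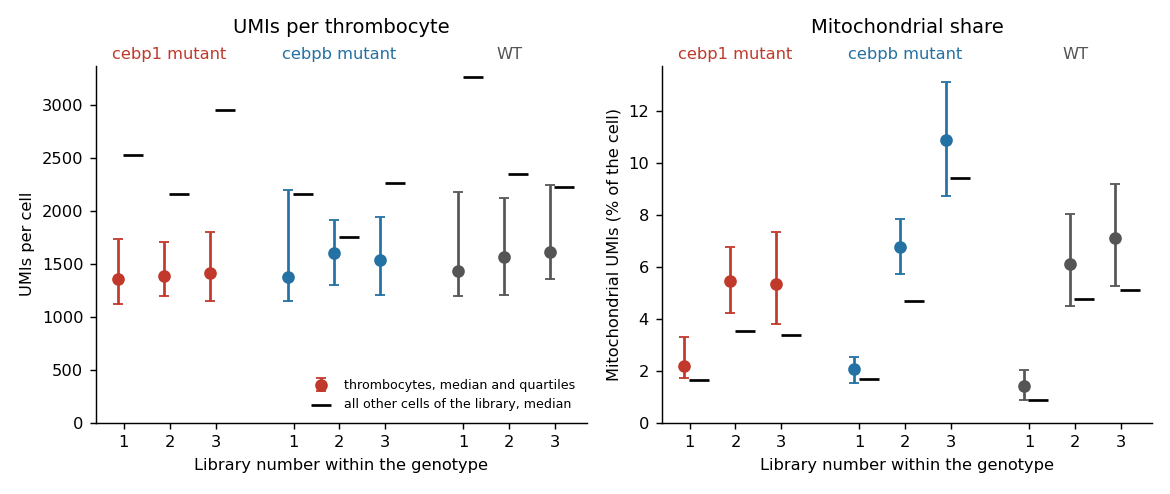
UMIs per thrombocyte (left) and mitochondrial UMIs as a percentage of the cell (right), by library. Coloured points and bars are the median and quartiles of thrombocytes, black dashes the median of all other cells of the library. Thrombocyte medians lie below the dash in all 9 libraries for UMIs and above it in all 9 for mitochondrial UMIs, and the 3 libraries numbered 1 are low on the right.

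Thrombocytes held little of the RNA captured from the kidney. They took 0.380%, 0.740% and 0.343% of the UMIs of the library in *cebp1* mutants, 0.218%, 0.196% and 0.616% in *cebpb* mutants, and 0.407%, 0.407% and 0.487% in WT. The mean was 0.487% ± 0.219 in *cebp1* mutants, 0.343% ± 0.236 in *cebpb* mutants and 0.434% ± 0.0459 in WT (SD, n = 3 each). WT libraries were alike in this, and both mutant groups reached above and below them. The limma log2 differences were 0.08 (adjusted p = 0.873) for *cebp1* mutants against WT, -0.54 (adjusted p = 0.555) for *cebpb* mutants against WT and 0.62 (adjusted p = 0.349) for *cebp1* mutants against *cebpb* mutants, with 1 (7.14%), 1 (7.14%) and 3 (21.4%) of 14 types called and thrombocytes in none. Without *cebp1* mutant library 2 the difference between *cebp1* mutants and WT was -0.26.

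Genes detected per thrombocyte overlapped between the genotypes. Median genes per cell were 471, 563 and 656.5 in *cebp1* mutants, 586.5, 596.5 and 485 in *cebpb* mutants, and 655.5, 506 and 516 in WT. The groups overlapped fully, with means of 563.5 ± 92.8 in *cebp1* mutants, 556 ± 61.7 in *cebpb* mutants and 559 ± 83.6 in WT (SD, n = 3 each). The limma log2 differences were 0.0082, -0.0042 and 0.01 for *cebp1* mutants against WT, *cebpb* mutants against WT and *cebp1* mutants against *cebpb* mutants (adjusted p = 0.998, 0.986 and 0.957), with 95% intervals that reached no farther than 0.50 on either side. Of 14 types, 0 (0%), 0 (0%) and 1 (7.14%) were called. In the comparisons with 0 calls, 1 type for *cebp1* mutants and 0 for *cebpb* mutants had an unadjusted limma p under 0.05, and those of thrombocytes were 0.972 and 0.986.

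Genes per cell rise with depth, so cells of 2000 to 3000 UMIs were also compared. Thrombocytes of that window, 5 to 22 cells per library, had a median of 647, 797 and 857.5 genes in *cebp1* mutants, 812, 811 and 621 in *cebpb* mutants, and 834, 781 and 690 in WT. The limma log2 differences were -0.0078, -0.05 and 0.04 in the order of comparisons above (adjusted p = 0.970, 0.839 and 0.962), and 0 of 9 types (0%) were called in each. At an unadjusted limma p under 0.05 there were 1, 0 and 0 types, and the unadjusted p of thrombocytes were 0.970, 0.825 and 0.855. The SE (0.20) was the same for all 9 types, pooled over them as if independent, and is not the spread of thrombocytes alone. Within a genotype the libraries differed by more than the genotypes did.

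Among cells of up to 2000 UMIs, thrombocytes had 39.2 genes per 100 UMIs by the mean of the library medians, the highest of the 15 types, with unknown immune cells (38.1) next below and erythrocytes lowest at 26.3. Pooled over cells, the order was another, with atypical cells at 48.0, which came mostly from 2 libraries, thrombocytes at 38.5 and unknown immune cells at 38.4. Genes per 100 UMIs fall with depth, so narrower classes were taken. By the mean of the library medians thrombocytes had 40.6 in the class of their 261 shallowest cells, 39.1 in that of the next 197 (up to 1500 UMIs) and 37.2 from 1500 to under 2000, with 1, 1 and 0 types above them. By the pooled median 3, 2 and 3 types lay above them, atypical cells each time. Library by library they had 35.0, 40.2 and 48.4 genes per 100 UMIs in *cebp1* mutants, 43.5, 38.1 and 32.0 in *cebpb* mutants, and 47.2, 35.5 and 33.0 in WT. Between 0 and 3 other types lay above them within a library. Erythrocytes of the same libraries, cells whose RNA is mostly that of globins, had 34.8 and 48.9 genes per 100 UMIs in *cebp1* mutant libraries 2 and 3 but 19.9 to 24.1 in the other 7. *cebp1* mutant library 3 was thus the only library in which thrombocytes did not lie above erythrocytes in genes for their depth. It is also 1 of the 2 libraries with many atypical cells, and the part of those in this difference was not tested. These values describe an annotated class against others and carry no test.

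**Figure D3:**
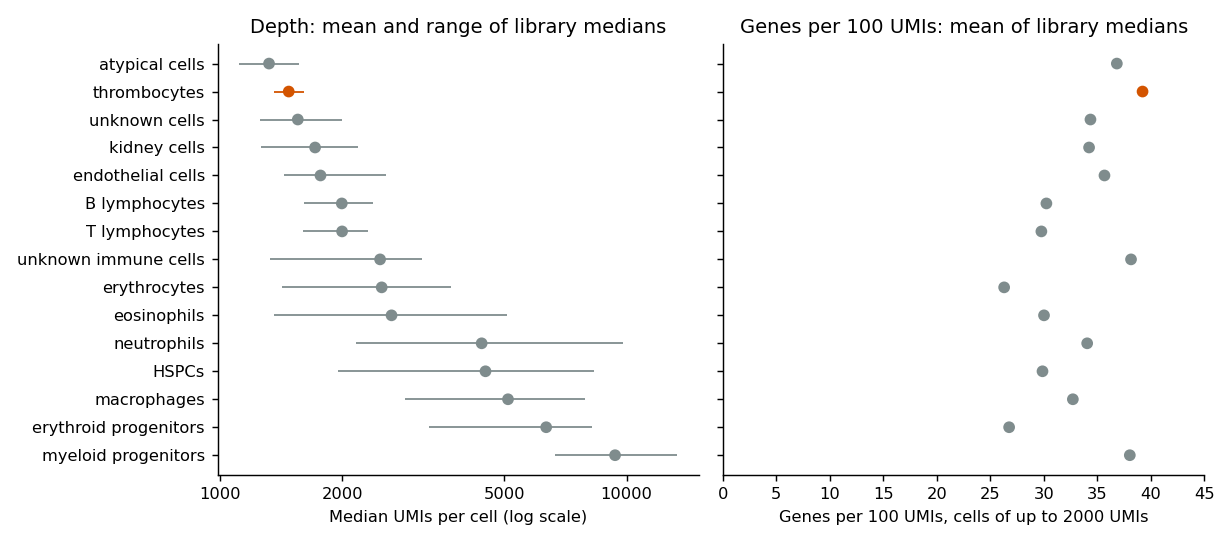
The 15 annotated types ordered by depth, with thrombocytes in orange. The left panel gives the mean (point) and range (line) of the library medians of UMIs per cell on a log scale, the right panel the mean of the library medians of genes per 100 UMIs in cells of up to 2000 UMIs. By these means thrombocytes have the second lowest depth (1475 UMIs) and the highest number of genes per 100 UMIs (39.2), though pooled over cells atypical cells lie above them in genes per 100 UMIs.

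The mitochondrial share of thrombocytes followed the library. It was 2.20%, 5.47% and 5.35% of the UMIs of the median thrombocyte in *cebp1* mutants, 2.08%, 6.76% and 10.9% in *cebpb* mutants, and 1.43%, 6.14% and 7.12% in WT. The libraries numbered 1 were lowest in each genotype, as they were for the other cells. The other cells of the same libraries had 1.63%, 3.52% and 3.37% in *cebp1* mutants, 1.69%, 4.68% and 9.45% in *cebpb* mutants, and 0.879%, 4.77% and 5.11% in WT, each below the thrombocytes. Among the 14 or 15 types present, thrombocytes ranked from ninth to twelfth from the bottom in every library. Mitochondrial UMIs reached 10% or more in 113 thrombocytes (13.1%), against 8.67% of the other cells, and *cebpb* mutant library 3 alone gave 54 of the 113.

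The fit of mitochondrial share called no difference between the genotypes. Group means were 4.34% ± 1.85 in *cebp1* mutants, 6.58% ± 4.41 in *cebpb* mutants and 4.89% ± 3.04 in WT (SD, n = 3 each). The limma log2 differences were 0.02, 0.43 and -0.42 for *cebp1* mutants against WT, *cebpb* mutants against WT and *cebp1* mutants against *cebpb* mutants (adjusted p = 0.987, 0.829 and 0.847), each with an SE of 0.95, and 0 of 14 types (0%) were called in any of them. No type had an unadjusted limma p under 0.05 either (0 of 14 in each), and those of thrombocytes were 0.987, 0.652 and 0.663. In this fit the SE was the same for all 14 types, pooled over them, and is not the spread of thrombocytes alone. Types of a library share its mitochondrial level, which the fit did not take into account. Relative to the other types of the same library the differences to WT were -0.12 for *cebp1* mutants and -0.11 for *cebpb* mutants. Within the 6 libraries numbered 2 and 3, not taken relative to other types, the difference of *cebp1* mutants to WT was -0.29. There both *cebp1* mutant medians (5.47% and 5.35%) lay below those of WT (6.14% and 7.12%). They also lay below those of *cebpb* mutants (6.76% and 10.9%), with few libraries in each group.

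The thrombocytes were not uniform in how genes followed UMIs. Over cells, Spearman's rho between UMIs and genes was 0.739 to 0.900 within libraries (34 to 200 cells each), and rho between UMIs and mitochondrial share was -0.510 to -0.204. Both are given as descriptions, since genes and UMIs of a cell share its capture. Median genes climbed with depth at first, from 441 in the 261 shallowest cells to 608 in cells from 1500 to under 2000 (208 cells) and 884 in cells from 3000 to under 5000 (46 cells). In the 33 cells of 5000 or more UMIs the median was lower again, at 737.

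Thrombocytes were then set against erythrocytes of their own library within 20% of their UMIs. At all depths, 218 thrombocytes had no more genes than the 95th percentile of those erythrocytes. They were 9.18%, 45% and 89.6% of thrombocytes in *cebp1* mutants, 12.96%, 2.94% and 7.06% in *cebpb* mutants, and 3.12%, 8.79% and 7.34% in WT. *cebp1* mutant libraries 2 and 3, whose erythrocytes had many genes, thus gave most of them, 90 and 86 of the 218. Pooled over all libraries, the share was 38.7% of the 261 shallowest thrombocytes, 22.8% of the next 197 and 14.4% from 1500 to under 2000 UMIs. It was 9.32% from 2000 to under 3000 and 23.9% from 3000 to under 5000. *cebp1* mutant libraries 2 and 3 weigh on these pooled values, which were not taken without them below 3000 UMIs. The cells of 3000 or more UMIs are described further. Of the 79 with 3000 or more UMIs, 31 in 7 libraries had no more genes than the 95th percentile of erythrocytes of their own library within 20% of their UMIs, and 48 in 9 libraries had more or, in 1 case, too few such erythrocytes for a comparison. Cells of the first kind are called low-gene in what follows and the rest high-gene. Low-gene cells had a median of 603 genes, 10.5 per 100 UMIs, and 1.81% mitochondrial UMIs, at a median of 5626 UMIs. High-gene cells had a median of 1089 genes, 28.0 per 100 UMIs, and 4.0% mitochondrial UMIs, at a median of 3800 UMIs. The difference in genes was what separated them and is no finding. The mitochondrial share was not used to separate them, but it fell with UMIs in every library, and low-gene cells were deeper. At 5000 or more UMIs it was 1.68% in low-gene and 2.33% in high-gene cells. The mitochondrial values are given without a test, since the cells share libraries. By library the low-gene cells were 3 of 8, 5 of 9 and 6 of 9 in *cebp1* mutants, 0 of 4, 0 of 2 and 4 of 10 in *cebpb* mutants, and 2 of 13, 6 of 9 and 5 of 15 in WT. Without *cebp1* mutant libraries 2 and 3, whose erythrocytes of 3000 or more UMIs had a median of 523 genes against 386 in the other libraries, 20 of 61 deep thrombocytes were low-gene.

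At 5000 or more UMIs, 20 of the 32 thrombocytes that could be compared (62.5%) were low-gene. By the same measure 29.4% of T lymphocytes, 14.1% of B lymphocytes, 9.96% of endothelial cells and 2.72% of neutrophils of that depth lay in the erythrocyte range. Erythroid progenitors, the neighbouring lineage, were not put to this measure. Their pooled medians were 6352.5 UMIs and 738 genes. Pooled erythrocytes from 6319 to under 7956 UMIs had a 95th percentile of 856.9 genes. A high share in the range is therefore not shown to be particular to thrombocytes. From 3000 to under 5000 UMIs it was 23.9% of thrombocytes (11 of 46), 17.7% of T lymphocytes and 12.1% of B lymphocytes. Endothelial cells had 8.03% and neutrophils 0.629% in that class. From 2000 to under 3000 UMIs thrombocytes, at 9.32% (11 of 118), lay below T lymphocytes (28.7%) and B lymphocytes (21.9%). They lay above endothelial cells (5.01%) and neutrophils (1.31%) there. All these percentages pool cells over libraries, while the erythrocyte limit differed by library. The types were spread unevenly over the libraries, neutrophils at 0.336% to 25.8% of the cells. The percentages thus compare types over unlike sets of libraries. The deepest thrombocyte, in *cebp1* mutant library 1, had 15995 UMIs and 1454 genes and was low-gene, while the next, in *cebpb* mutant library 1, had 12280 UMIs and 1731 genes and was high-gene. Which transcripts the low-gene cells carried was not analysed here. Leaving them out moved the share comparisons little, to log2 differences of 0.29 for *cebp1* mutants against WT, -0.60 for *cebpb* mutants against WT and 0.90 for *cebp1* mutants against *cebpb* mutants.

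**Figure D4:**
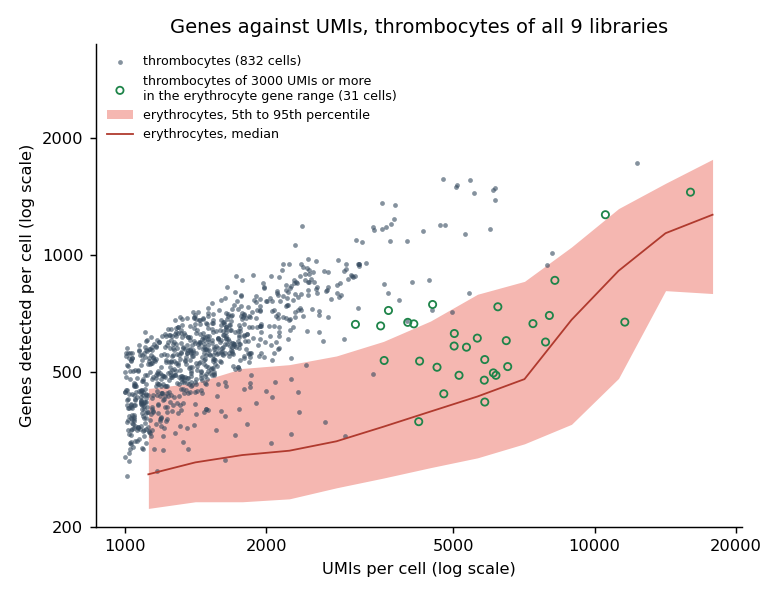
Genes against UMIs per cell, both on log scales, for the 863 thrombocytes. Grey points are thrombocytes and green circles the 31 cells of 3000 or more UMIs whose genes lay at or below the 95th percentile of erythrocytes of their own library. The red band spans the 5th to the 95th percentile of all erythrocytes pooled and the line is their median. Most thrombocytes lie above the band at under 3000 UMIs, and the circled cells run along it.

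Finally, the share of thrombocytes was set against that of each of 13 other types across the 9 libraries, on log2 shares of cells other than erythrocytes. None of the 13 relations passed after adjustment. The strongest by Pearson's r was with unknown immune cells (r = -0.665, exact permutation p = 0.0462, adjusted p = 0.443, Spearman rho = -0.417, exact p = 0.270, adjusted p = 0.843). For them r was -0.660 without the 2 libraries farthest from the median and -0.519 within the 6 libraries numbered 2 and 3. By Spearman's rho other types were stronger, atypical cells the most (rho = 0.50, exact permutation p = 0.178, adjusted p = 0.843). For HSPCs r was 0.07 (exact p = 0.862, rho = -0.083) and for erythroid progenitors 0.20 (exact p = 0.601, rho = 0.15), with adjusted p = 0.862 for both r. A relation of thrombocyte numbers to those of their cells of origin could not be resolved with 9 libraries. Shares of 1 library sum to a whole, which ties the types to each other.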

How the data were processed

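Whole kidneys of 9 fish were sequenced cell by cell from droplets. The submitters' processing notes name Cell Ranger, Seurat and the genome build GRCz11. Per the methods of the study, the authors removed poor cells by their UMIs, genes and mitochondrial share and cells that looked like doublets, integrated the libraries and named clusters by marker genes, so no doublet caller was run here. The authors deposited UMI counts and gene counts per cell, not normalized, and mitochondrial content as a percent of a cell's UMIs. In the 101598 cells the fewest UMIs were 1001 and the fewest genes 201. Thrombocytes were the cells with that annotation.

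Each cell's genotype was read from the deposited column. To number the libraries of a genotype, the count of cells per barcode suffix was matched to the cell totals in the methods of the study, which is the sole basis of the numbers. Each library is another fish, and p-values cover spread among fish and preparations alike. Depth per library is given above.

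Cells of each of 15 types per library were tested in R 4.3.3 by the quasi-likelihood F-test of edgeR 4.0.16, with an untrended dispersion and total cells as offset, with all 9 libraries in the model. Ratios (pseudocount 0.5 cells), median UMIs, genes and mitochondrial percent and UMI shares were tested on a log2 scale with limma 3.58.1. Medians were tested only for types that reached 20 cells in each library, and the window of 2000 to 3000 UMIs for types with at least 5. A pseudocount of 0.1 was added to mitochondrial percent only in the alternative that took means of log2 values. The Benjamini-Hochberg adjustment ran over all types per comparison at 0.05. Exact permutation tests were two-sided, and those between groups were run in R. Python 3.11.15, pandas 2.3.3, NumPy 2.4.6, SciPy 1.17.1 and matplotlib 3.10.9 were used. DESeq2 1.42.0, TMM factors, limma on logit shares, other filters, offsets and pseudocounts, a replicate block and leaving out each library were alternatives. The tests were run on simulated data with known changes, in which the types of a library varied independently. Types of a real library need not, so that check does not show how large a difference these data could reveal.

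By the naming rule every thrombocyte result was to be given in all 3 comparisons, passed or not, and other types only beside thrombocytes: erythrocytes, erythroid progenitors, HSPCs and the types next in order. T and B lymphocytes, endothelial cells and neutrophils in the comparison of deep cells, and atypical cells, were added after values were seen. No gene was tested. The cell type, its lists and the tests were chosen with earlier results of these data known.

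As a check of pairing, deviations of the 15 types from their genotype means were correlated between libraries of equal number. These correlations all exceeded 0.1 with the 15 types (lowest 0.278, median 0.620, highest 0.846). They were -0.552 at the lowest, 0.241 in the median and 0.576 at the highest once atypical cells were left out. Pairing by number thus rested on that type and was not established. The main tests did not use it, and the replicate block was an alternative.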

Additional observations from a re-analysis of the deposited data

How the results depend on the processing

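Values are log2 differences, C1 standing for *cebp1* mutants against WT, CB for *cebpb* mutants against WT and C1B for *cebp1* mutants against *cebpb* mutants. None of the 27 thrombocyte results passed, and none did under any of 474 alternatives (lowest adjusted p 0.0561), so the changes of sign are those of differences short of the threshold, and their cause was not tested. There were 63 such changes, 31 of them on leaving out a library, in 20 of the 27 results. Of the log2 differences, the paragraphs that follow list only those that changed sign and the leave-one-out ranges that held such a change. The other 7 results, among them the share of all cells in CB and C1B, kept their sign under every alternative. Thrombocyte counts of 34 to 200 cells per library and 3 fish a group limit what can be seen, and the 95% interval of the share in *cebp1* mutants against WT ran from 0.527-fold to 2.83-fold. With the replicate block the share of all cells gave 0.28 (C1), -0.74 (CB) and 1.02 (C1B), and pairing the libraries changed no thrombocyte call.

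Counting only cells of at least 2000 UMIs gave shares of all cells of -0.42, of cells other than erythrocytes of -0.28 and of UMIs of -0.48 (all C1), ratios to HSPCs and erythroid progenitors of -0.23 and -0.35 (C1B), median UMIs of 0.033 (C1), 0.015 (CB) and 0.017 (C1B), genes of -0.061 (C1) and -0.057 (C1B), and mitochondrial share of -0.31 (C1). Counting only cells under 10% mitochondrial UMIs gave UMIs of 0.0066 (CB) and genes of -0.017 (C1), 0.0067 (CB) and -0.024 (C1B). Relative to the other types of the library, UMIs were 0.14 (CB), genes -0.10 (C1), 0.036 (CB) and -0.14 (C1B), genes at matched depth -0.097 (C1B), and mitochondrial share -0.12 (C1) and -0.11 (CB). With means of log2 values, genes were -0.044 (C1) and -0.0061 (C1B). In a window of 1000 to 2000 UMIs, genes were 0.075 (C1) and 0.037 (CB). Within the 6 libraries numbered 2 and 3, ratios to erythroid progenitors were 0.58 (C1) and 0.32 (CB), genes 0.074 (CB), genes at matched depth 0.17 (C1) and mitochondrial share -0.29 (C1). Without the low-gene cells of 3000 or more UMIs, a choice made after seeing the data, UMIs were 0.013 (CB).

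Leaving out each library in turn gave ranges of -0.086 to 0.50 for the share of all cells (C1), -0.094 to 0.47 for that of cells other than erythrocytes (C1), -0.26 to 0.29 for that of UMIs (C1), -0.57 to 0.052 per HSPC (C1), and -0.76 to 0.24 (C1) and -0.30 to 0.75 (C1B) per erythroid progenitor. They were -0.082 to 0.033 for UMIs (CB), -0.11 to 0.13 (C1), -0.071 to 0.12 (CB) and -0.10 to 0.14 (C1B) for genes, -0.093 to 0.11 (C1), -0.12 to 0.083 (CB) and -0.091 to 0.16 (C1B) for genes at matched depth, and -0.72 to 0.45 (C1), -0.30 to 1.11 (CB) and -1.10 to 0.095 (C1B) for mitochondrial share. Of the relations to other types, 1 passed when deviations from the genotype means were used, in place of 0.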

Other observations

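When the differences between genotypes were taken out, by subtracting the genotype mean of each log2 share of cells other than erythrocytes, the shares of thrombocytes and T lymphocytes correlated across the 9 libraries. Pearson's r was 0.855 (exact permutation p = 0.0036, adjusted over 13 types p = 0.0468) and Spearman's rho 0.733 (exact p = 0.0311, adjusted p = 0.405). The deviations sum to 0 within each genotype, and libraries of equal number may be paired. The permutation over all orders takes neither into account, so its p may be too small, and the rank measure did not pass after adjustment. On the shares themselves r was 0.165, and within the 6 libraries numbered 2 and 3 it was -0.127. HSPCs deviated the other way (r = -0.686, exact p = 0.0417, adjusted p = 0.271, rho = -0.55, adjusted p = 0.639), which did not pass after adjustment.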
